A study of Mus musculus with 25 samples.

Results

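The megakaryocyte and platelet genes described here are 36 genes listed by symbol, and all 36 were found by Ensembl ID among the 13641 genes of the deposited count table. They were followed library by library in bulk RNA-seq of hematopoietic stem cells (HSCs), sorted from mouse bone marrow as Lin−Sca1+cKit+CD48−CD150+ cells. Recipient mice carried donor marrow of 4 genotypes, and by their labels all 4 bore the SclCre and GFP alleles. The groups are SclCre;GFP (called WT), SclCre;V617F;GFP (VF), SclCre;V617F;IL-1b-/-GFP (Il1bKO) and SclCre;V617F;IL-1R1-/-GFP (Il1r1KO), so both knockouts also carry the mutant JAK2. Tamoxifen, which switches on the JAK2 V617F construct, was given 16 weeks after engraftment, and mice were killed 2 or 4 weeks after it began. Each genotype had 4 libraries at 2 weeks, numbered 1 to 4, and VF, Il1bKO and Il1r1KO had 3 each at 4 weeks, numbered 5 to 7, with no WT at 4 weeks. The labels give neither the age nor the strain of the mice, the cells that remained from the host, nor whether sorting used GFP. They do not state that each library came from a separate mouse, so p-values measure the spread between these libraries.

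Megakaryocytes are the marrow cells that shed platelets, and their genes fall into a few roles. Adhesion receptors such as the integrin of Itga2b and Itgb3 and the GPIb-IX-V complex hold platelets to the vessel wall and to each other, and alpha granules store chemokines, von Willebrand factor, thrombospondin and multimerins. Agonist receptors for thrombin and nucleotides signal through kinases, lipases and the GTPase Rap1 to activate the integrin. Part of the HSC pool is primed toward platelets and is known to express Vwf, Itga2b and Clu. JAK2 V617F, an active form of a kinase of cytokine signalling, is the driver of many myeloproliferative neoplasms with raised platelet counts, and IL-1β signals through IL-1R1.

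None of the 36 genes passed the test in any of the 15 comparisons made, and their clearest feature was how far they varied between libraries of the same group. Thbs1, the gene of thrombospondin-1, had the lowest p of all members in both knockouts against VF over both times and stood at lower levels in each, without passing. Vwf and Cavin2 were high and low in much the same libraries, and Pf4 and Rap1b in another set of libraries. Ppbp was highest in VF_2w 4 and Il1r1KO_2w 2, which held most of the few Gp6 reads. The largest values of 17 of the 36 members lay in the library VF_4w 6, and the lowest values of 13 lay in Il1bKO_4w 5. These counts were not made over all genes, so they do not tell a trait of the members from one of the whole library.

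The libraries held 21990959 to 40178173 counts (median 27528218), and the members took 0.302% to 0.919% of them. Of the sort markers, Slamf1 (CD150) stood at 58.4 to 170.2 CPM (counts scaled to library size with TMM factors) and Kit at 461 to 1282 CPM. Ly6a (Sca1) stood at 106 to 444 CPM and Cd48 at 0.606 to 17.1 CPM. Group means of Cd48 were 1.49 to 2.84 CPM at 2 weeks and 7.65 to 11.6 CPM at 4 weeks. Flt3 and Cd34, not named in the sort, ran from 5.38 to 220 CPM and from 88.3 to 403 CPM. The human JAK2 construct exons 3 to 12 had 1 to 20 reads in the libraries labelled WT and 1782 to 5944 in the others. Exons 13 to 25 of the construct had 918 to 1681 reads in VF, 1219 to 3970 in Il1bKO and 2135 to 3604 in Il1r1KO. CreERT2 had 0 or 1 reads in the libraries labelled WT, although the label SclCre;GFP names the Cre. Elsewhere it had 5382 to 10224 reads in VF, 14171 to 32987 in Il1bKO and 8187 to 16739 in Il1r1KO. The GFP sequence (pEGFP) had 83 reads in the library labelled WT_2w 3 and 1345 in WT_2w 4, although all labels name GFP. It had 27442 and 14960 reads in WT_2w 1 and 2. The counts against WT are therefore also given without WT_2w 3 and WT_2w 4. In the other genotypes pEGFP had 10221 to 16180 reads in VF, 11991 to 17089 in Il1bKO and 24763 to 33012 in Il1r1KO. Il1b had 0 reads in all 7 Il1bKO libraries, but it was also low elsewhere (0 to 391), and Il1r1 had 271 to 882 reads in Il1r1KO against 167 to 625 in WT and VF, so its gene-level count does not check that label. Il1bKO_4w 5 had the most counts and the fewest genes detected (11871, median of all libraries 13320). The 2 times were processed as 2 batches, so a difference between times cannot be told apart from a difference between batches.

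Levels per length spanned a wide range across the members. In RPKM (CPM divided by exon length in kilobases, mean of 25 libraries), Rap1b, a GTPase that activates the platelet integrin, was highest at 206 RPKM. Pf4, the chemokine platelet factor 4, followed at 175 RPKM, then the tetraspanin Cd9 at 154, the thrombin receptor F2r at 109, the transcription factor Fli1 at 107 and the multimerin Mmrn1 at 81.9 RPKM. At the other end stood Gp6, the collagen receptor, at 0.0549 RPKM, Dnm3, a dynamin, at 0.186 RPKM and Clec1b, the CLEC-2 receptor, at 1.02 RPKM. By role, the median of the 12 adhesion receptors was 20.5 RPKM, that of the 8 granule and matrix proteins 18.4, of the 5 agonist receptors and channels 20.7, of the 6 signalling proteins and enzymes 18.8 and of the 4 cytoskeleton and vesicle genes 4.42. Exons of Gp1bb overlap those of Sept5 and exons of Clec1b those of Clec9a on the same strand. Exons of Plek overlap those of Cnrip1 on the opposite strand, and reads were counted without strand. Counts of these members may therefore include reads of the neighbour or lack reads from the shared stretch.

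**Figure D1:**
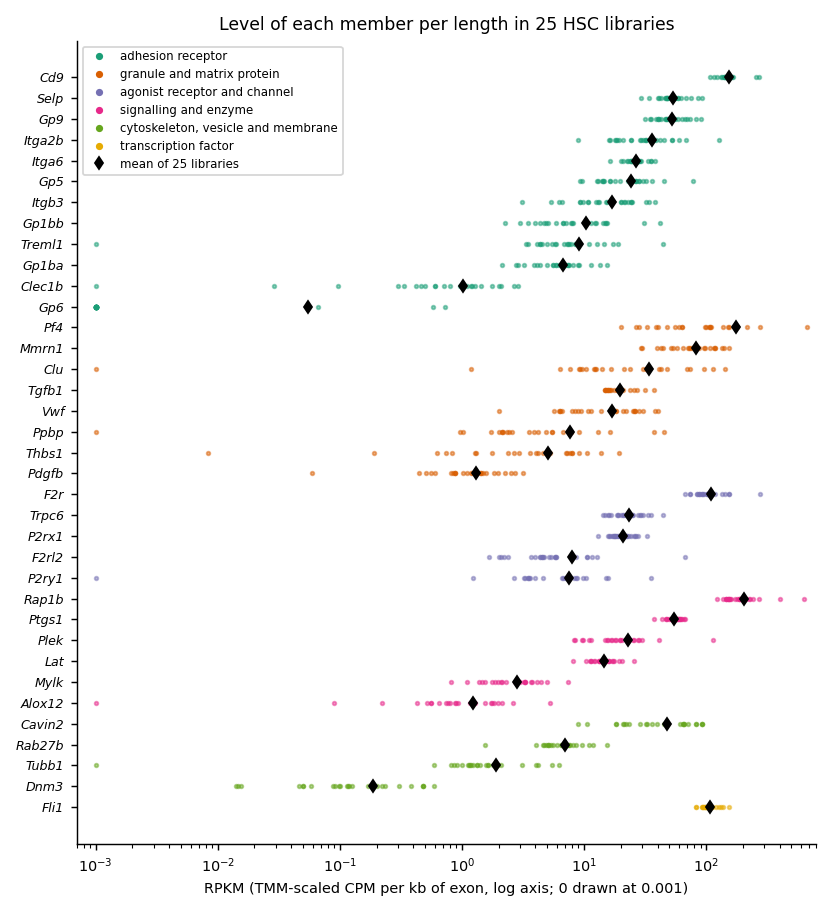
Level of each of the 36 members in RPKM on a log axis, with a dot for each of the 25 libraries and a diamond for their mean, grouped by role and coloured by it. Rap1b (206 RPKM) and Pf4 (175 RPKM) are the highest means, Gp6 (0.0549 RPKM) is the lowest, and the dots of Pf4, Clu, Ppbp, Thbs1 and P2ry1 spread far along the axis.

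The members varied more within groups than most genes. The within-group SD of log2(CPM + 0.5) had a median of 0.61 over the members against 0.31 over all 13641 genes, and 32 of the 36 members lay above the latter. Gp6 apart, at least 1 library had 0 reads for Ppbp, Clec1b, Treml1, P2ry1, Clu and Alox12, in each case Il1bKO_4w 5, and for Tubb1, in Il1r1KO_2w 1. At the depth of Il1bKO_4w 5 a count of 0 allows up to 0.0753 CPM, which covers counting error only. The summed level of the members was 9658 CPM in VF_4w 6, 3047 CPM in Il1bKO_4w 5 and 4219 CPM in the median library.

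**Figure D2:**
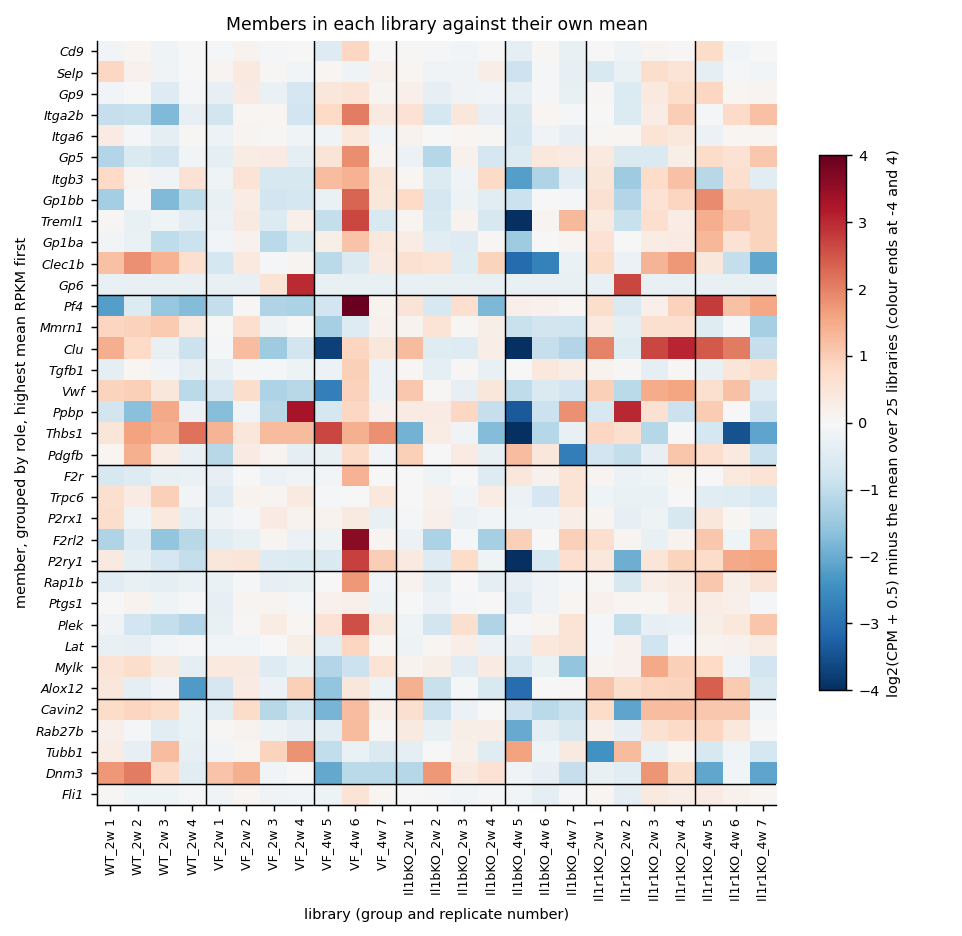
Log2(CPM + 0.5) of each member in each library minus that member's mean over the 25 libraries, with members in rows by role and libraries in columns by group; vertical lines part the groups and horizontal lines the roles. VF_4w 6 holds the highest value of 17 members (red) and Il1bKO_4w 5 the lowest of 13 (blue), counts not made over all genes, and columns of the same group differ from each other.

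Among the adhesion receptors, Itgb3, the beta chain of the platelet integrin, stood lowest in Il1bKO at 4 weeks. At 2 weeks Itgb3 stood at 147, 90.8, 76.7 and 127 CPM in WT, at 74.7, 125, 54.9 and 54.5 in VF, at 89.1, 57.7, 77.7 and 144 in Il1bKO and at 119, 31.6, 143 and 191 CPM in Il1r1KO. Its level at 4 weeks was 202, 225 and 118 CPM in VF, 18.2, 36.9 and 63.5 in Il1bKO and 39.3, 136 and 63.8 in Il1r1KO. The 3 Il1bKO libraries lay below the 3 VF libraries at 4 weeks, and the groups overlapped at 2 weeks. The log2 difference at 4 weeks was −2.20 (SE 0.55, adjusted p = 0.0941), called by DESeq2 (0.00752) and without Il1bKO_4w 7 (0.0379), and −1.67 (adjusted p = 0.243) without VF_4w 6, Il1bKO_4w 5 and Il1r1KO_4w 5, the 3 libraries that stood apart. The change of the Il1b effect from 2 to 4 weeks was −2.45 (SE 0.71, adjusted p = 0.473) for Itgb3.

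Its partner Itga2b (CD41, the alpha chain) stood highest in VF at 4 weeks. At 2 weeks Itga2b was at 88.1, 88.5, 48.9 and 133 CPM in WT, 99.0, 176, 175 and 97.8 in VF, 247, 102, 227 and 133 in Il1bKO and 166, 113, 203 and 329 CPM in Il1r1KO. At 4 weeks it was at 288, 690.2 and 214 CPM in VF, 106, 174 and 158 in Il1bKO and 157, 285 and 373 in Il1r1KO. All 3 VF libraries of 4 weeks exceeded all 4 of 2 weeks and all 3 Il1bKO libraries of 4 weeks. The log2 difference was 1.53 (SE 0.42, adjusted p = 0.364) for VF at 4 against 2 weeks and −1.45 (SE 0.46, adjusted p = 0.163) for Il1bKO against VF at 4 weeks. Without VF_4w 6 these were 0.87 (adjusted p = 0.892) and −0.78 (0.436). Against WT at 2 weeks Itga2b differed by 0.99 (SE 0.39, adjusted p = 0.9999) in Il1bKO and by 1.18 (SE 0.39, adjusted p = 0.589) in Il1r1KO.

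Gp1bb, the beta subunit of the receptor for von Willebrand factor, was low in WT and high in a few libraries of 4 weeks. At 2 weeks Gp1bb stood at 6.29, 16.6, 4.7 and 8.24 CPM in WT, 13.9, 21.3, 9.84 and 10.2 in VF, 30.04, 10.6, 14.9 and 12.4 in Il1bKO and 26.3, 7.32, 25.8 and 31.3 CPM in Il1r1KO. At 4 weeks its values were 14.1, 87.2 and 23.7 CPM in VF, 9.09, 17.1 and 16.3 in Il1bKO and 64.8, 32.0 and 31.8 in Il1r1KO. VF and WT overlapped at 2 weeks, and every Il1r1KO library of 4 weeks exceeded every one of 2 weeks. The log2 difference of VF at 4 against 2 weeks was 1.59 (SE 0.55, adjusted p = 0.469), and 0.45 (adjusted p = 0.995) without VF_4w 6.

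Cd9, a tetraspanin of the platelet surface, stood at 289.9, 325, 275 and 305 CPM in WT, 292, 342, 300.3 and 314 in VF, 319, 296, 287 and 309.9 in Il1bKO and 303, 272, 332 and 321 CPM in Il1r1KO at 2 weeks. Its 4-week values were 218, 553 and 303 CPM in VF, 238, 322 and 252 in Il1bKO and 520.2, 287 and 313 in Il1r1KO. VF_4w 6 and Il1r1KO_4w 5 were the highest of the 25 libraries, and the others lay at 218 to 342 CPM. Against VF over both times Cd9 differed by −0.22 (interval −0.52 to 0.08, 2 SE either side) in Il1bKO and by 0.02 (−0.28 to 0.32) in Il1r1KO. Gp6, the collagen receptor, had reads in 3 libraries, 10 in VF_2w 3, 95 in VF_2w 4 and 96 in Il1r1KO_2w 2, or 0.389, 4.29 and 3.41 CPM. The other 22 libraries had 0 reads. With reads pooled over each group and WT at 2 weeks taken at a floor of 3 counts, the fold of Gp6 over WT was 36.5 in VF and 31.3 in Il1r1KO. VF_2w 4 gave 95 of the 105 VF reads, and Il1r1KO_2w 2 gave all 96 Il1r1KO reads. These folds thus describe single libraries in the main and set no bound on a difference between genotypes.

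Among the granule and matrix proteins, Thbs1 (chr2:118111876-118127133 in mm10), which encodes thrombospondin-1 of alpha granules, had the lowest p of all members in both knockouts against VF over both times. At 2 weeks Thbs1 stood at 25.3, 55.3, 48.5 and 83.2 CPM in WT and at 46.8, 24.5, 43.6 and 43.7 CPM in VF. In the knockouts at 2 weeks its level was 4.46, 22, 16.2 and 5.03 CPM in Il1bKO and 32.1, 27.9, 7.91 and 17.8 CPM in Il1r1KO. At 4 weeks VF had 117, 48.3 and 64.1 CPM, Il1bKO 0.0502, 7.75 and 14.5 CPM and Il1r1KO 10.7, 1.16 and 3.78 CPM. Every Il1bKO library was below every VF library, as for 0.139% of all 13630 genes tested, and those of 2 weeks were below every WT library, whereas Il1r1KO at 2 weeks overlapped VF and at 4 weeks lay below it. Over both times the log2 difference was −2.55 (SE 0.62, edgeR adjusted p = 0.15) in Il1bKO against VF and −2.38 (SE 0.61, adjusted p = 0.136) in Il1r1KO against VF. DESeq2 called both (adjusted p = 0.0155 and 0.0298), and limma voom called the latter (0.0315). It was also called when the other groups were dropped from the model (0.0384) and when VF_4w 6, Il1bKO_4w 5 and Il1r1KO_4w 5, which stood apart, were left out (0.00557). Over all alternatives the adjusted p of the former ran from 0.0155 to 0.408 and that of the latter from 0.00557 to 0.38. Thbs1 lies 11.2 Mb from Il1b on chromosome 2, and whether that position bears on its level was not tested.

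Pf4, which recruits monocytes and binds heparin, varied most through a single library. At 2 weeks Pf4 stood at 14.4, 46, 23.6 and 20.2 CPM in WT, 34.6, 70.3, 29 and 28 in VF, 98.3, 43.3, 109 and 19.3 in Il1bKO and 111, 45.7, 78.2 and 129.6 CPM in Il1r1KO. At 4 weeks its level was 39.8, 1073 and 75.8 CPM in VF, 79, 77.6 and 72.5 in Il1bKO and 481, 155 and 200.3 in Il1r1KO. VF_4w 6 stood above all other libraries, Il1r1KO_4w 5 came next, and every Il1r1KO library of 4 weeks exceeded every one of 2 weeks. VF at 4 against 2 weeks differed by a log2 of 3.29 (SE 0.78, adjusted p = 0.217), which DESeq2 called (0.0109) and which was 0.51 (adjusted p = 0.986) without VF_4w 6. Against VF, Pf4 in Il1r1KO differed over both times by 0.33 (SE 0.53, adjusted p = 0.881), and by 1.72 (SE 0.41, adjusted p = 0.0472) without VF_4w 6. That was the only call in 23 alternatives, whose log2 ran from 0.009 to 1.72. Without the 3 libraries that stood apart, Il1r1KO_4w 5 among them, it was 1.39 (adjusted p = 0.0891). At 4 weeks Il1bKO differed from VF by −2.38 (SE 0.84, adjusted p = 0.2), and by 0.40 in the opposite direction without VF_4w 6 (0.805).

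VF_4w 6 also carried other transcripts at its own level. There Cd74, the MHC class II invariant chain, stood at 1089 CPM (median of all libraries 117), the interferon-induced Ifi47 at 796 CPM (median 301), Gata1 at 189 CPM (median 62.0) and Il1b at 14.1 CPM (median 0.0312). Of 11 macrophage and dendritic markers 5 were counted (Cd68, Vcam1, Siglech, Irf8 and Cd74), and their sum was 1123 CPM in VF_4w 6 against 127 and 147 CPM in the other VF libraries of 4 weeks. Cd74 alone gave 1089 CPM of it in VF_4w 6, 293 of 323 CPM in WT_2w 2 and 385 of 415 CPM in Il1bKO_4w 5. The sum therefore mostly repeats the level of Cd74, with Irf8 at 26.7 CPM in VF_4w 6. That sum ran from 74.6 to 323 CPM in WT, 139 to 284 in VF at 2 weeks, 109 to 383 in Il1bKO at 2 weeks, 80.3 to 415 in Il1bKO at 4 weeks, 99.6 to 152 in Il1r1KO at 2 weeks and 103 to 221 CPM in Il1r1KO at 4 weeks. The sum of 13 counted neutrophil and monocyte genes was lowest in VF_4w 6, at 438 CPM. The part of these transcripts in the levels of Pf4 and the other members was not tested.

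Ppbp, the platelet basic protein, is a chemokine like Pf4 and its neighbour, with RefSeq starts 3917 bases apart on the plus strand of chromosome 5. The pair did not share their highest libraries, although VF_4w 6 and Il1r1KO_4w 5, the highest for Pf4, led for Ppbp within their own groups. Ppbp stood at 2.55, 1.11, 14.1 and 3.81 CPM in WT, 1.05, 4.21, 1.87 and 49.2 in VF, 5.93, 5.9, 8.55 and 2.2 in Il1bKO and 2.77, 40.8, 7.25 and 2.29 CPM in Il1r1KO at 2 weeks. At 4 weeks it was at 2.62, 8.46 and 5.24 CPM in VF, 0, 2.29 and 17.6 in Il1bKO and 9.82, 4.55 and 2.33 in Il1r1KO. VF_2w 4 and Il1r1KO_2w 2, its highest libraries, were those with most Gp6 reads and stood low for Pf4, at 28 and 45.7 CPM. Tubb1, the platelet beta-1 tubulin, was highest in VF_2w 4 (8.77 CPM), then in Il1bKO_4w 5 (7.63) and Il1r1KO_2w 2 (5.93). Across the 25 libraries Pf4 and Ppbp had r = 0.04 (−0.19 at 2 weeks and 0.29 at 4 weeks) and Ppbp and Gp6 r = 0.66. The r of Ppbp and Gp6 rests on the 3 libraries with Gp6 reads, all of 2 weeks, and has no value at 4 weeks. Ppbp and Tubb1 were chosen for these values after they were seen.

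The promoters of Pf4 and Ppbp are shown because these neighbours differed in their highest libraries, with those of Rap1b and Gp1bb, which moved with Pf4, and of Cavin2, which moved with Vwf. Each is 300 bases from RefSeq on GRCm38.p6, from 250 before the annotated start to 50 after it, 5′ to 3′ on the gene's strand. Capitals mark, on either strand, a GATA hexamer, taken as AGATAA or its variant AGATAG and likewise as TGATAA or its variant TGATAG, or an ETS core, taken as AGGAAG or its variant CGGAAG.
Pf4, chr5:90772185-90772484, plus strand: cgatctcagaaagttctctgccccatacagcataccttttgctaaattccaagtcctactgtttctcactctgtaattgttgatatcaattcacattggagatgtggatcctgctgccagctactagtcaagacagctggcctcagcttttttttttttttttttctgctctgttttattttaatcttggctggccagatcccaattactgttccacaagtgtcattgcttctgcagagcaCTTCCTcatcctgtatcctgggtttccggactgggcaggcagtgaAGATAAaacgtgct
Ppbp, chr5:90768268-90768567, plus strand: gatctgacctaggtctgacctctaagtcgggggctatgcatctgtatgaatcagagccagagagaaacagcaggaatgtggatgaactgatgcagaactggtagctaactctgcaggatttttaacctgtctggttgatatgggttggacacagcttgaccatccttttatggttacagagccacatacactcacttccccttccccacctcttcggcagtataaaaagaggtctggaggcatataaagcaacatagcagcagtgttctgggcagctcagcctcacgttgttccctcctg
Rap1b, chr10:117845925-117846224, minus strand: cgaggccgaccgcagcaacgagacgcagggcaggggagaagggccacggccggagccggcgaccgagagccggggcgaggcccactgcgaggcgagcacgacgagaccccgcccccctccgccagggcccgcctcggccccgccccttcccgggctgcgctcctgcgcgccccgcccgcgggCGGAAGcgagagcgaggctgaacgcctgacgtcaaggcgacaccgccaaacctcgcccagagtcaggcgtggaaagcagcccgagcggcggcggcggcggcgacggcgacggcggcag
Gp1bb, chr16:18622354-18622653, minus strand: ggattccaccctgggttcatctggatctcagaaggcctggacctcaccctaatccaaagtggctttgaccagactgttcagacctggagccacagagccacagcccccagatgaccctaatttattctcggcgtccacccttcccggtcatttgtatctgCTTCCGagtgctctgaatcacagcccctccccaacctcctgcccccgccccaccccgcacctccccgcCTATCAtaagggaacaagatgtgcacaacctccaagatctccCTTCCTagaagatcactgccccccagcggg
Cavin2, chr1:51288876-51289175, plus strand: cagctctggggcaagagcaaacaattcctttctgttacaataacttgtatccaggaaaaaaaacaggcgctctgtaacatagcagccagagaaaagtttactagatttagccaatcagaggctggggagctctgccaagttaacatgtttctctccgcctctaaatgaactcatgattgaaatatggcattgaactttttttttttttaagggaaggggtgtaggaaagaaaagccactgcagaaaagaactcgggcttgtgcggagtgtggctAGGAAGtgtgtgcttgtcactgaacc
In these windows Pf4 held 1 GATA and 1 ETS match, Gp1bb 1 and 2, Rap1b and Cavin2 0 and 1, and Ppbp 0 of either. Of the 28 members with an entry, 9 (32.1%) held a GATA match, 16 (57.1%) an ETS match and 5 (17.9%) both. A GATA match was held by 29.8% of all 32851 promoters listed, an ETS match by 46.5% and both by 12.6%. A match is a description of letters, and no match says only that these letters are absent from the window.

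Vwf, whose product bridges platelets to collagen, and Clu, the granule chaperone clusterin, had their highest group means in Il1r1KO. At 2 weeks Vwf stood at 405, 417, 293 and 102 CPM in WT, 136, 355, 91.8 and 101 in VF, 455, 222, 173 and 294 in Il1bKO and 419.6, 102, 609.6 and 653 CPM in Il1r1KO. Its level at 4 weeks was 32.3, 410.4 and 182 CPM in VF, 106, 145 and 128 in Il1bKO and 334, 486 and 152 in Il1r1KO. The 2-week groups overlapped. At 4 weeks the Il1bKO libraries lay below the Il1r1KO libraries, a separation not counted over all genes, and below the Il1bKO libraries of 2 weeks. Against VF, Vwf differed by 1.01 (SE 0.47, adjusted p = 0.416) in Il1r1KO over both times and by 0.01 (SE 0.46, adjusted p = 0.999) in Il1bKO. At 2 weeks alone the difference of Il1r1KO from VF was 1.38 (SE 0.61, adjusted p = 0.9999).

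Clu ran from 0 to 494 CPM. At 2 weeks Clu stood at 164, 105, 48.6 and 32.9 CPM in WT, 56.7, 141, 22 and 35.6 in VF, 146, 42.4, 41.5 and 72.4 in Il1bKO and 239.9, 43.2, 389 and 494 CPM in Il1r1KO. At 4 weeks it was at 4.06, 110.2 and 82.1 CPM in VF, 0, 31.4 and 26.3 in Il1bKO and 331, 255 and 31.6 in Il1r1KO. In Il1r1KO 5 of the 7 libraries stood above every library of the other groups, and Il1r1KO_2w 2 and Il1r1KO_4w 7 stood among them. Over both times the log2 difference was 1.92 (SE 0.76, adjusted p = 0.344) against VF and 2.69 (SE 0.79, adjusted p = 0.207) against Il1bKO.

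Mmrn1, a multimerin that binds factor V in alpha granules, had lower means at 4 weeks than at 2. At 2 weeks Mmrn1 stood at 795, 826, 903 and 574 CPM in WT, 429.6, 695, 382 and 428 in VF, 480.1, 637, 447 and 516 in Il1bKO and 568, 338, 687 and 696 CPM in Il1r1KO. Its 4-week values were 173, 302 and 496 CPM in VF, 233, 261 and 249.99 in Il1bKO and 314, 413 and 175 in Il1r1KO. WT and VF overlapped at 2 weeks, where Mmrn1 had the lowest p of all members (log2 −0.68, SE 0.28, unadjusted p = 0.0233, adjusted p = 0.9998). Between the times the log2 difference was −0.58 (SE 0.30, adjusted p = 0.636) in VF, −1.07 (SE 0.31, adjusted p = 0.0912) in Il1bKO and −0.93 (SE 0.31, adjusted p = 0.0928) in Il1r1KO, and DESeq2 called the latter pair (0.0283 and 0.0496). The 2-week and 4-week ranges did not overlap in Il1bKO and did in the other genotypes.

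Among the receptors for agonists and the channels, F2r (PAR1, a receptor for thrombin) stood at 225, 244, 282 and 291 CPM in WT, 279.6, 341, 294 and 316 in VF, 344, 311, 341 and 246 in Il1bKO and 374, 293, 309 and 364 CPM in Il1r1KO at 2 weeks. At 4 weeks F2r was at 319.5, 919 and 348 CPM in VF, 475, 392.2 and 513 in Il1bKO and 345, 453 and 513 in Il1r1KO. The 4 WT libraries lay below every Il1r1KO library of 2 weeks, and Il1bKO stood higher at 4 weeks than at 2 in every library. Trpc6, a cation channel, stood at 178, 144, 223 and 105 CPM in WT, 79.2, 126, 125 and 149 in VF, 114, 128, 107 and 141 in Il1bKO and 101, 96.2, 95.03 and 113 CPM in Il1r1KO at 2 weeks. At 4 weeks Trpc6 was at 109, 114 and 155 CPM in VF, 96.6, 72.0 and 168 in Il1bKO and 84.6, 81.2 and 75.5 in Il1r1KO. The 3 Il1r1KO libraries were the lowest of their time but for 1 of Il1bKO, and the 2-week groups overlapped. Trpc6 differed by −0.44 (SE 0.17, adjusted p = 0.339) between Il1r1KO and VF over both times and by −0.68 (SE 0.23, adjusted p = 0.586) between Il1r1KO and WT at 2 weeks. F2rl2 (PAR3, the thrombin cofactor receptor of mouse platelets) was at 169 CPM in VF_4w 6 and at 4.16 to 32.0 CPM in the other 24 libraries.

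Of the signalling proteins, Rap1b stood at 399, 446, 418 and 456 CPM in WT, 457, 533, 439 and 443 in VF, 606, 418, 551 and 423 in Il1bKO and 573, 353, 663 and 703 CPM in Il1r1KO at 2 weeks. At 4 weeks Rap1b was at 542, 1843 and 512 CPM in VF, 439, 497 and 536 in Il1bKO and 1156, 642 and 787 in Il1r1KO. VF_4w 6 and Il1r1KO_4w 5 were the highest libraries, as they were for Pf4. Plek (pleckstrin, a substrate of protein kinase C) stood at 76.7, 49.4, 43.8 and 37.5 CPM in WT, 69.6, 88.5, 105 and 88.8 in VF, 74.8, 51.1, 134 and 37.0 in Il1bKO and 80.9, 43.5, 67.0 and 71.0 CPM in Il1r1KO at 2 weeks. At 4 weeks Plek was at 127, 507 and 115 CPM in VF, 82.2, 91.0 and 125 in Il1bKO and 101, 114 and 185 in Il1r1KO. All libraries of 4 weeks exceeded those of 2 weeks in VF and in Il1r1KO. The log2 difference of Plek between the times in VF was 1.503 (SE 0.43, adjusted p = 0.364), and without VF_4w 6 it was 0.46 (0.958). Over both times Plek in Il1bKO differed from VF by −0.79 (SE 0.30, adjusted p = 0.432), and by −0.27 (adjusted p = 0.754) without VF_4w 6.

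Cavin2, a coat protein of caveolae, was the highest of the cytoskeleton and vesicle genes. At 2 weeks Cavin2 stood at 199, 218, 200.4 and 98.7 CPM in WT, 88.4, 199, 55.4 and 71.2 in VF, 187, 65.0, 101 and 120.3 in Il1bKO and 197, 27.1, 281 and 281 CPM in Il1r1KO. Its 4-week values were 32.4, 284 and 137 CPM in VF, 67.2, 56.1 and 64.1 in Il1bKO and 251, 253 and 111 in Il1r1KO. It was high and low in much the same libraries as Vwf, and the 2-week groups overlapped. At 4 weeks the Il1bKO libraries lay below those of Il1r1KO, a separation not counted over all genes. Cavin2 differed by 1.22 (SE 0.44, adjusted p = 0.24) between Il1r1KO and Il1bKO over both times. It lies 10.97 Mb from Il1r1 on chromosome 1, and whether that position bears on its level was not tested.

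Fli1, an ETS transcription factor that activates many megakaryocyte genes, was among the steadiest members. At 2 weeks Fli1 stood at 380.4, 323, 329 and 348 CPM in WT, 331, 389, 334 and 344 in VF, 374, 356, 339.6 and 360.0 in Il1bKO and 386, 289, 479 and 444 CPM in Il1r1KO. At 4 weeks it was at 323, 534 and 385 CPM in VF, 345, 289.9 and 357 in Il1bKO and 462, 419 and 389.7 in Il1r1KO. Groups overlapped at 2 weeks, and at 4 weeks the Il1r1KO libraries lay above the Il1bKO libraries, a separation not counted over all genes. Its log2 difference was 0.02 (interval −0.26 to 0.29) for VF against WT, −0.15 (−0.35 to 0.06) for Il1bKO against VF and 0.11 (−0.10 to 0.32) for Il1r1KO against VF.

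**Figure D3:**
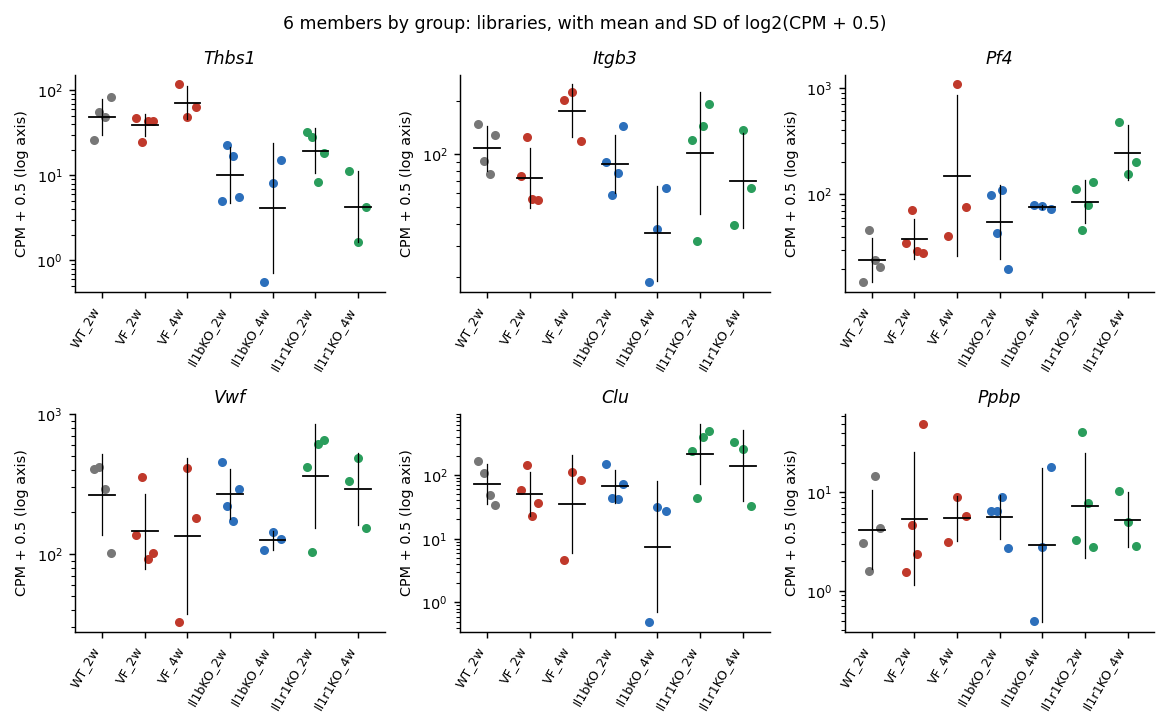
CPM + 0.5 on a log axis for 6 members in the 7 groups, with a dot for each library, a bar for the mean of log2(CPM + 0.5) and a line for its SD. Thbs1 lies lower in both knockouts than in VF, with every Il1bKO library below every VF library; Pf4 reaches 1073 CPM in VF_4w 6; and the dots of Vwf, Clu and Ppbp overlap between most groups.

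The counts over the list follow each comparison. VF and WT at 2 weeks differ in the mutant JAK2 and also in CreERT2 reads, and the parts of these cannot be told apart. The knockouts differ from VF in construct reads too. CreERT2 reads were higher in every Il1bKO library and pEGFP reads in every Il1r1KO library than in every VF library. In comparisons of a knockout with VF or with the other knockout, the part of these constructs cannot be told apart from that of the knockout. For VF against WT at 2 weeks, 0 of the 36 members passed the test by edgeR, where 0.00734% of 13630 genes did. At an unadjusted p below 0.05 stood 2 members (Mmrn1 and Gp6), against 2.27% of all genes. DESeq2 called 1 member, Gp6, and limma voom 0. Of the members 20 had a positive difference (50.5% of all genes did), and their median was 0.05 on the log2 scale against 0.002 over all genes. F2rl2 was higher and Clec1b lower in every VF library than in every WT library, where 1.87% and 1.8% of all genes were. Without WT_2w 3 and WT_2w 4 edgeR called 0 members, with 16 positive and a median of −0.02.

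In Il1bKO against VF over both times, 0 members passed by edgeR (background 0.139%), 6 had an unadjusted p below 0.05 (9.38% of all genes), DESeq2 called 1 (Thbs1) and limma voom 0. Only 5 members had a positive difference where 47.8% of all genes did, and the median was −0.32 against −0.01 over all genes. All 12 adhesion receptors and all 5 agonist receptors and channels were negative, with medians of −0.50 and −0.11. This did not hold at 2 weeks, where 7 of the 12 and 3 of the 5 were positive, with medians of 0.11 and 0.01. At 4 weeks 0 of either were positive, with medians of −0.95 and −0.20. Gp6, with reads in 3 libraries, is 1 of the 12, and the roles were not counted without VF_4w 6. Without VF_4w 6 the median of the members was −0.10, with 12 of them positive, and without the 3 libraries that stood apart it was −0.03, with 16 positive. At 2 weeks 0 members passed (background 0.00734%) and 2 had an unadjusted p below 0.05 (1.36% of all genes), with 22 positive (50.1% of all genes) and a median of 0.04. DESeq2 called 1 (Gp6) and limma voom 0, and Thbs1 was lower in every Il1bKO than in every VF library, as were 2.08% of all genes. At 4 weeks 0 passed (background 0.125%) and 14 had an unadjusted p below 0.05 (14.7% of all genes), with 5 positive (48% of all genes) and a median of −0.55. DESeq2 called Itgb3, Thbs1 and Rab27b, and limma voom 0. Itga2b, Itgb3, Gp1ba, Gp9, Thbs1 and Itga6 were lower in all 3 Il1bKO than in all 3 VF libraries of 4 weeks, as were 7.3% of all genes, and Tubb1 and Dnm3 were higher, as were 5.72%. The change of the Il1b effect between the times was called for 0 members by edgeR (background 0.0147%), by DESeq2 and by limma voom, and 9 had an unadjusted p below 0.05 (8.28% of all genes), with 6 positive (48.2%) and a median of −0.55.

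In Il1r1KO against VF over both times, 0 members passed by edgeR (background 0.169%), 5 had an unadjusted p below 0.05 (11.4% of all genes), and DESeq2 and limma voom each called 1 (Thbs1). A positive difference was found for 22 members (50.9% of all genes), with a median of 0.07 against 0.005 over all genes, and without VF_4w 6 for 28 members with a median of 0.26. All 5 agonist receptors and channels were negative, with a median of −0.14. At 2 weeks alone 3 of the 5 were positive, with a median of 0.12, and at 4 weeks 1 was, with a median of −0.31. Without the 3 libraries that stood apart Thbs1 and Tgfb1, the gene of the growth factor TGF-β1, were called, Tgfb1 with a log2 difference of 0.48 (adjusted p = 0.0293) against 0.10 (0.896) in all libraries. At 2 weeks 0 members passed (background 0.0514%; DESeq2 and limma voom 0), with 3 at an unadjusted p below 0.05 (3.15% of all genes), 25 positive (51.1%) and a median of 0.23. At 4 weeks 0 passed (background 0.147%; DESeq2 1, limma voom 0), with 4 at an unadjusted p below 0.05 (12.7% of all genes), 17 positive (51%) and a median of −0.005. Thbs1 and Trpc6 were lower in every Il1r1KO than in every VF library of 4 weeks, as were 6.65% of all genes. The change of the Il1r1 effect between the times was called for 0 members by edgeR (background 0%), by DESeq2 and by limma voom, and 3 had an unadjusted p below 0.05 (5.32% of all genes), with 8 positive (51.1%) and a median of −0.40. The comparisons of both knockouts with VF share the VF libraries.

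**Figure D4:**
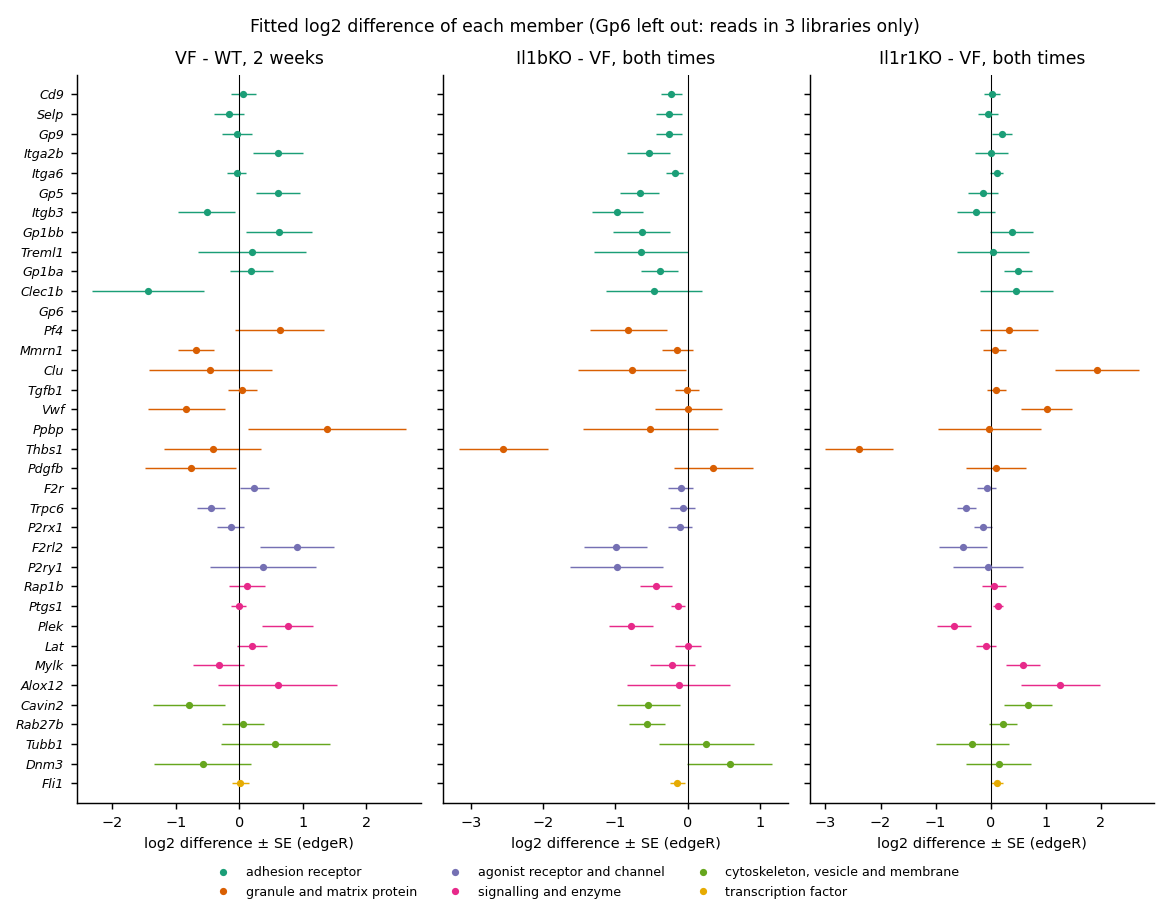
Fitted log2 difference with its SE for 35 members (Gp6 left out, with reads in 3 libraries) in VF against WT at 2 weeks, Il1bKO against VF and Il1r1KO against VF over both times, coloured by role. Thbs1 lies farthest to the left in both knockouts (−2.55 and −2.38), Clu farthest to the right in Il1r1KO (1.92), and most of the other members are negative in Il1bKO.

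Set directly against each other over both times, Il1r1KO exceeded Il1bKO for 30 members (53.7% of all genes were positive), with a median of 0.49 against 0.02 over all genes. By edgeR 0 members passed (background 0.176%; DESeq2 0, limma voom 0), and 14 had an unadjusted p below 0.05 (14.1% of all genes). All 12 adhesion receptors were positive, with a median of 0.61, among them Gp1ba, the ligand-binding subunit of the GPIb complex (0.87, SE 0.26, adjusted p = 0.207). Gp6, also among them, had reads in Il1r1KO_2w 2 alone of the libraries compared. Fli1 differed by 0.26 (SE 0.10, adjusted p = 0.288). Without the 3 libraries that stood apart 28 members were positive, with a median of 0.28. Against WT at 2 weeks 0 members passed in Il1bKO (background 0.044%; DESeq2 and limma voom 0) and 0 in Il1r1KO (background 0.0587%; DESeq2 1, Gp6, and limma voom 0). At an unadjusted p below 0.05 stood 2 members in Il1bKO (3.1% of all genes) and 7 in Il1r1KO (5.98%). Positive were 20 members in Il1bKO (50.9% of all genes) and 27 in Il1r1KO (49.9%), with medians of 0.04 and 0.35. Gp1ba, F2r, F2rl2 and Alox12 were higher in every Il1r1KO than in every WT library, as were 2.43% of all genes, and Thbs1 was lower in every Il1bKO than in every WT library, as were 2.27%. Without WT_2w 3 and WT_2w 4 edgeR called 0 members in either, with 15 and 26 positive and medians of −0.03 and 0.18. These comparisons share the WT libraries with that of VF.

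Between 4 and 2 weeks 0 members passed by edgeR in VF (background 0.022%), Il1bKO (0.748%) and Il1r1KO (2.46%). At an unadjusted p below 0.05 stood 12 members in VF (8.48% of all genes), 7 in Il1bKO (19.1%) and 6 in Il1r1KO (19.3%). DESeq2 called Pf4 and Gp6 in VF, Mmrn1 in Il1bKO, and Mmrn1 and Gp6 in Il1r1KO, and limma voom called none. In VF 27 members were positive (49.6% of all genes), with a median of 0.35 against −0.003 over all genes, and without VF_4w 6 17 were positive, with a median of −0.05. The median was −0.16 in Il1bKO, with 12 positive (47.6%), and 0.14 in Il1r1KO, with 21 positive (48.2%). Itga2b, Gp1ba, Plek and Thbs1 were higher in every VF library of 4 weeks, as were 7.39% of all genes, and Tubb1 and Dnm3 lower (6.99%). Gp1bb, Gp5, Pf4, Treml1 and Plek were higher in every Il1r1KO library of 4 weeks, as were 9.17% of all genes, and Trpc6 lower (7.58%). In Il1bKO, F2r and F2rl2 were higher (7.65%), and Vwf, Mmrn1, Rab27b, Clu and Itga6 lower (8.2%).

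Members that stood high in the same libraries were compared through their deviation from the group mean of log2(CPM + 0.5), over 25 libraries and as a description only, since all members share the library. Vwf and Cavin2 had Pearson's r = 0.94 and Spearman's rho = 0.95, with r = 0.93 at 2 weeks, 0.97 at 4 weeks and 0.92 without the 2 libraries farthest from the median, VF_4w 5 and Il1r1KO_2w 2. Of 13629 other genes Cavin2 was the most like Vwf, followed by Ehd3, an endosomal ATPase (r = 0.94), and Rab13 (0.88), and of the members Mmrn1 (0.80), Clu (0.78), Fli1 (0.76) and Gp1bb (0.74) came next. Pf4 was most like Ifi47 (r = 0.92) and, of the members, Rap1b (0.89), F2rl2 (0.84) and Gp1bb (0.82). Without VF_4w 6 and VF_4w 5, its farthest libraries, Rap1b was at 0.78, Gp1bb at 0.73 and F2rl2 at 0.63. Ifi47, also highest in VF_4w 6, was not compared without them.

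**Figure D5:**
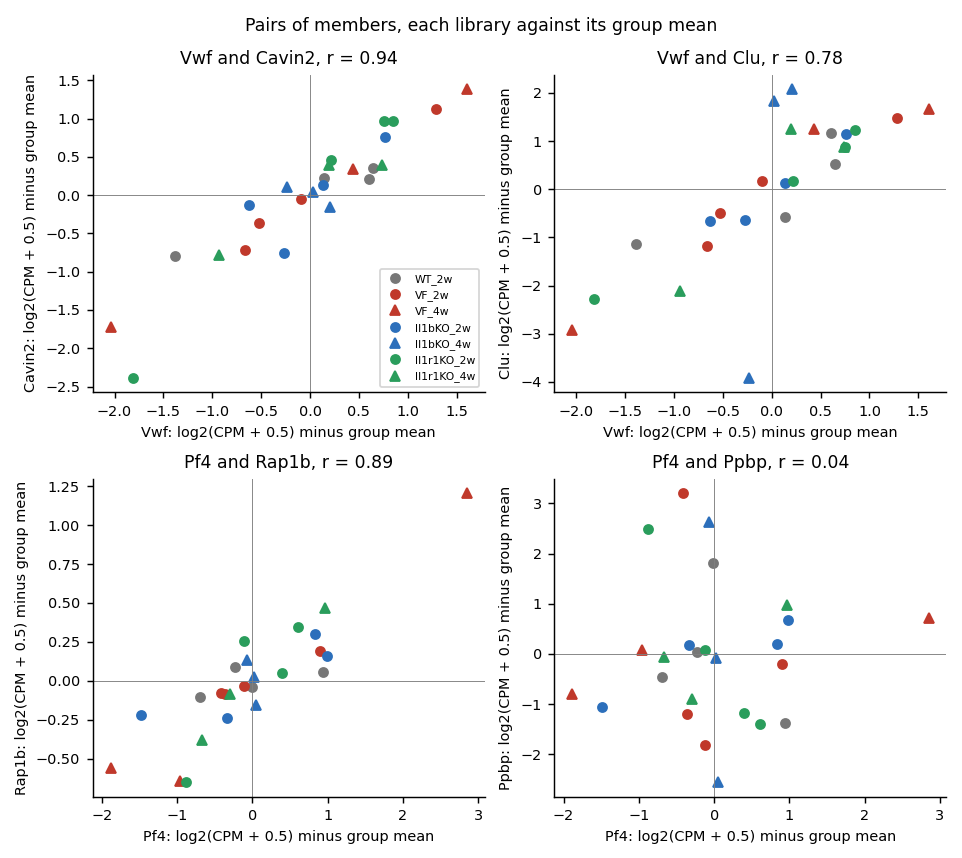
Deviation of log2(CPM + 0.5) from the group mean for 4 pairs of members, with a point for each of the 25 libraries, coloured by genotype, circles for 2 weeks and triangles for 4 weeks. Vwf and Cavin2 lie along a line (r = 0.94), Vwf and Clu more loosely (0.78), Pf4 and Rap1b along a line whose upper end is VF_4w 6 (0.89), and Pf4 and Ppbp show no relation over the 25 libraries together (0.04).

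Genes that act with the members were taken from lists chosen with earlier results of these data known. Of 23 counted regulators of megakaryocyte formation, Tal1, a basic helix-loop-helix factor of blood stem cells and megakaryocytes, passed the test against WT at 2 weeks in both knockouts and no other regulator passed in any comparison. Tal1 stood at 60.5 CPM (SD 2.69, n = 4) in WT, 79.0 (SD 6.45, n = 4) in VF, 96.5 (SD 7.36, n = 4) in Il1bKO and 94.1 (SD 5.08, n = 4) in Il1r1KO at 2 weeks. It rose by a log2 of 0.67 (SE 0.11, adjusted p = 0.0137) in Il1bKO and 0.64 (SE 0.11, adjusted p = 0.0224) in Il1r1KO against WT, and in VF the difference was 0.38 (SE 0.11, adjusted p = 0.9998). Each call was lost when any of the 4 WT libraries was left out, and the calls held in 10 of 18 alternatives in Il1bKO and 8 of 18 in Il1r1KO. Without WT_2w 3 and WT_2w 4, the libraries with few GFP reads, Tal1 differed by 0.66 (adjusted p = 0.247) and 0.63 (0.312). Tal1 is also the gene whose regulatory sequence drives the SclCre allele, and whether the construct adds reads was not tested. The transcription factor Gata1 stood at 14.5 to 189 CPM, Gata2 at 406 to 587, Gfi1b at 119 to 231 and Runx1 at 121 to 219 CPM, and none of these factors passed. Gata1 had its lowest values in WT (14.5 to 27.6 CPM) and differed there from VF by a log2 of 1.20 (SE 0.36, unadjusted p = 0.00326, adjusted p = 0.9998).

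Of 37 counted partners in platelet signalling and 30 counted genes of granule and proplatelet machinery, 0 passed in any of the 15 comparisons. Their summed levels were steadier than those of the members, at 4994 to 5872 CPM and 4326 to 5499 CPM over the 25 libraries. Over both times the signalling partners had a median log2 difference of −0.05 in Il1bKO and −0.07 in Il1r1KO against VF, and the machinery genes −0.09 and −0.03. In these 2 comparisons 3 and 3 signalling partners and 1 and 2 machinery genes had an unadjusted p below 0.05, where 9.38% and 11.4% of all genes did. Of the marker lists for stem cells and other cell types, the genes that passed were Mecom, an HSC transcription factor, which fell in Il1r1KO at 4 against 2 weeks (log2 −1.09, SE 0.19, adjusted p = 0.0127), and Nkg7, a granule gene of cytotoxic lymphocytes, which rose there (1.69, SE 0.43, adjusted p = 0.0428). Without Il1r1KO_4w 5 neither passed (Mecom adjusted p = 0.0912, Nkg7 0.279). Mecom passed in the other 14 of 15 alternatives, with a log2 of −0.93 (adjusted p = 0.0118) without the 3 libraries that stood apart. Nkg7 passed in 9 of 15, and without those 3 libraries it was at 1.43 (adjusted p = 0.0887). Both genes moved the same way in the other genotypes, without passing there. From 2 to 4 weeks the mean of Mecom went from 347 to 212 CPM in VF, 318 to 209 in Il1bKO and 358 to 169 in Il1r1KO. That of Nkg7 went from 26.3 to 43.5 CPM in VF, 31.9 to 76.7 in Il1bKO and 24.7 to 79.8 in Il1r1KO.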

How the data were processed

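RNA-seq counts per gene of 25 libraries in 7 groups were used as deposited by the authors. Per the submitters' processing notes, reads were checked with FastQC 0.11.5, aligned to mm10 with STAR 2.7.10a and counted with featureCounts, and R 4.2.2 was used. Per the labels, libraries were made with an unstranded SMART-Seq v4 kit from sorted cells. PCR reads carry no molecular identifiers, so limits at 0 reads (3 counts) cover counting error only. Exon lengths came from GENCODE on GRCm38, and promoters from RefSeq on GRCm38.p6, which lists 28 of the 36 members and not Vwf, Itgb3, Fli1, Clu, Thbs1, Itga6, Pdgfb and Rab27b.

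The counts were tested with edgeR 4.0.16 (R 4.3.3; TMM factors, filterByExpr, robust quasi-likelihood fit) in 1 model of 7 groups over 13630 genes, with Benjamini-Hochberg adjustment over all genes and a threshold of 0.05. Every adjusted p without another tool's name is from this fit. Comparisons over both times average the differences at 2 and 4 weeks. The script was tested on simulated data. Levels are CPM, and log2 values outside the fit used CPM + 0.5. DESeq2 1.42.0, limma 3.58.1 (voom with quality weights), RLE and upper-quartile factors, no filter, a filter at CPM 5 in 3 libraries, fewer groups, a replicate block and left-out libraries were alternatives. The 33 pairs of libraries with the same number correlated at −0.148 to 0.080 after removal of group means, so numbers were not taken to pair libraries.

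The members and lists were chosen with earlier results of these data known. Values in every library are given for Vwf, Itga2b, Pf4, Gp1bb, Fli1 and Clu, for the members of lowest p in each comparison and for the highest member of each role by RPKM. Other members were named after their values were seen. A withheld item is not reported here.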

Additional observations from a re-analysis of the deposited data

Results flagged for a closer look

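In groups of 4 libraries, a value was singled out where its gap to the nearest library exceeded 0.829 of the group's range. This held for 7 of 144 member-by-group values, and chance singles out about 1 in 20. Il1r1KO_2w 2 gave 4 of them: Gp1bb at 7.32 CPM (others 25.8 to 31.3), P2ry1, an ADP receptor, at 5.33 CPM (29.9 to 41.9) and Cavin2 at 27.1 CPM (197 to 281) lay below the other libraries, and Gp6 at 3.41 CPM lay above libraries at 0. Cavin2 was also low in WT_2w 4, at 98.7 CPM (199 to 218). Thbs1 was low in VF_2w 2, at 24.5 CPM (43.6 to 46.8), and Rab27b, a GTPase of granule release, in Il1bKO_2w 2, at 54.8 CPM (80.9 to 87.5).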

How the results depend on the processing

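No member was called by edgeR in any comparison with all libraries, nor with RLE or upper-quartile factors, no filter, the filter at CPM 5 or the replicate block, which called 0 members in the 12 comparisons it could be fitted for. DESeq2 called 1 member each in VF against WT, Il1bKO against VF (both times, and 2 weeks), Il1r1KO against VF (both times, and 4 weeks), Il1r1KO against WT and Il1bKO at 4 against 2 weeks, 2 each in VF and Il1r1KO at 4 against 2 weeks, and 3 in Il1bKO against VF at 4 weeks, and its Gp6 calls rest on reads in 3 libraries. In Il1r1KO against VF over both times, limma voom and a fit with fewer groups each called 1. Without the 3 libraries that stood apart, 2 were called there, 3 at 4 weeks and 1 in Il1r1KO at 4 against 2 weeks. With 1 library left out, the count ran from 0 to 1 in Il1r1KO against VF over both times and in each genotype at 4 against 2 weeks, and from 0 to 2 in Il1bKO against VF at 4 weeks, where Clec1b (−5.38, adjusted p = 0.0303) joined Itgb3 without Il1bKO_4w 7. Of 43 member differences followed, 41 kept their direction in every alternative run. Pf4 in Il1bKO against VF at 4 weeks turned to 0.40 without VF_4w 6 and 0.38 without the 3 libraries, with −2.92 to 0.40 as the range over left-out libraries. Tgfb1 in Il1r1KO against VF over both times ran from −0.0064 to 0.36 over left-out libraries. It was −0.0057 without VF_4w 5 and −0.0064 without Il1r1KO_4w 7. The causes were not tested. Counts over all genes moved more: for Il1r1KO against VF over both times from 23 to 15 to 117 with 1 library left out and 20 to 320 in the other alternatives, and for Il1bKO at 4 against 2 weeks from 102 to 8 to 516 and 4 to 607. At 4 weeks the ranges were 5 to 225 and 0 to 375 for Il1bKO against VF, and 1 to 139 and 1 to 403 for Il1r1KO against VF. For Il1r1KO at 4 against 2 weeks they were 10 to 827 and 39 to 929. Calls of members in these alternatives are to be read beside these counts.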
